A study of Mus musculus with 9 samples.

Results

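The glucocorticoid response genes described here are 9 genes of the mouse lung transcriptome: the glucocorticoid receptor gene Nr3c1, the established receptor targets Fkbp5, Tsc22d3, Zbtb16, Sgk1, Dusp1, Klf9 and Cdkn1a, and Hsd11b1, which encodes a steroid-activating enzyme. They were chosen by gene name from a table of 34638 genes, with earlier results of these data known. Their counts beside the share of all genes are therefore a description and not a test of the set. All 9 were found in the table and passed the filter on low values. RNA was sequenced from whole lung of wild-type C57BL/6 mice in 3 groups of 3 libraries. Control mice received phosphate buffered saline, IL-33 mice received recombinant mouse IL-33 into the trachea at 0.5 µg a mouse on each day from day 0 to day 3, and IL-33+LM8 mice received the same IL-33 after an intraperitoneal dose of LM8, an inhibitor of the adaptor MyD88, at 10 mg/kg. IL-33 is an alarmin released by damaged epithelium whose receptor signals through MyD88. For the control and IL-33 groups the study's methods give female mice, an age of 6 to 8 weeks and collection on day 4, whereas the sex, age and collection day of the IL-33+LM8 group are not given in the sources used here. Whether control and IL-33 mice received an injection without LM8 is not given either, so the inhibitor and the injection cannot be told apart. The labels do not describe the animals behind each library further, so p-values measure the spread between these libraries.

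Glucocorticoids enter cells by diffusion and bind the glucocorticoid receptor, which is held in the cytosol by heat shock protein 90 and its co-chaperones. The bound receptor moves to the nucleus, where it raises the transcription of genes near its response elements and restrains inflammatory transcription factors. In the lung, inhaled and systemic glucocorticoids are mainstays of asthma treatment, and local enzymes set how much active hormone reaches the receptor.

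Total counts per library were 62238131, 61767006 and 73869252 in control, 66029783, 59830237 and 53877663 in IL-33, and 59753648, 62104126 and 90607218 in IL-33+LM8. Levels are given as FPKM, fragments scaled by gene length and library size, which allows genes to be compared per length. A gene was past the test at a Benjamini-Hochberg adjusted p under 0.05 over all genes tested, in edgeR's quasi-likelihood test of the 6 libraries of a comparison. Fold changes are log2 values from that fit, with their standard error (SE). A single gene tested alone by an exact two-sided permutation of 3 against 3 libraries cannot give a p under 0.1.

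One library in each group stood apart. Control replicate 3, IL-33 replicate 1 and IL-33+LM8 replicate 3 deviated from their group means in the same direction on the first principal component of these deviations, which held 61.2% of their variance. In these libraries Cebpd, itself a glucocorticoid-induced gene, stood at 42.2, 29.3 and 42.7 FPKM, against 8.26 and 11.2 in the other control libraries, 10.1 and 14.2 in the other IL-33 libraries and 11.7 and 14.0 in the other IL-33+LM8 libraries. Phlda3, a p53 target gene, stood at 37.4, 27.8 and 31.3 FPKM in them, against 13.8 and 15.7 in the other control libraries, 18.9 and 27.0 in the other IL-33 libraries and 13.8 and 12.3 in the other IL-33+LM8 libraries. Fabp1 was low in them, at 4.26, 0 and 0.169 FPKM, against 7.22 to 16.9 in the other 6 libraries. Of the 9 genes, Dusp1 and Klf9 had their highest value in that library in 3 of 3 groups. What sets these libraries apart was not tested. For the 9 genes, values with and without them are given where a call changed. Calls of the other gene lists are given with all libraries only.

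In IL-33 lungs 7 of the 9 genes were lower than in control, where 27.2% of the 16831 genes tested were lower, and 1, Fkbp5, was higher, where 27.4% were. Sgk1 did not pass. With a change of at least 2-fold there were 5 (Fkbp5, Tsc22d3, Zbtb16, Dusp1 and Hsd11b1), against 17.0% of all genes in either direction. The median log2 fold change was -0.88 over the 9 genes and -0.01 over all genes. In IL-33+LM8 against IL-33, 5 genes were higher (Tsc22d3, Zbtb16, Klf9, Cdkn1a and Hsd11b1), where 12.6% of all genes were, and 0 were lower, where 13.9% were. None of the 5 reached 2-fold, against 5.39% of all genes, and the median was 0.48 against -0.01. In IL-33+LM8 against control, 1 gene was higher (Fkbp5), against 16.3% of all 16829 genes tested, and 3 were lower (Nr3c1, Tsc22d3 and Zbtb16), against 13.4%. The count of 1 is near the background share. Fkbp5 alone reached 2-fold in that comparison, where 7.33% of all genes did, and the median was -0.29 against 0.00. The same shares over all genes apply to the counts of the other gene lists. The 3 comparisons share their groups, so their values are given side by side and are not independent. Because whole lung was sequenced, fewer cells of a type and less RNA per cell cannot be told apart for any of these genes.

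**Figure D1:**
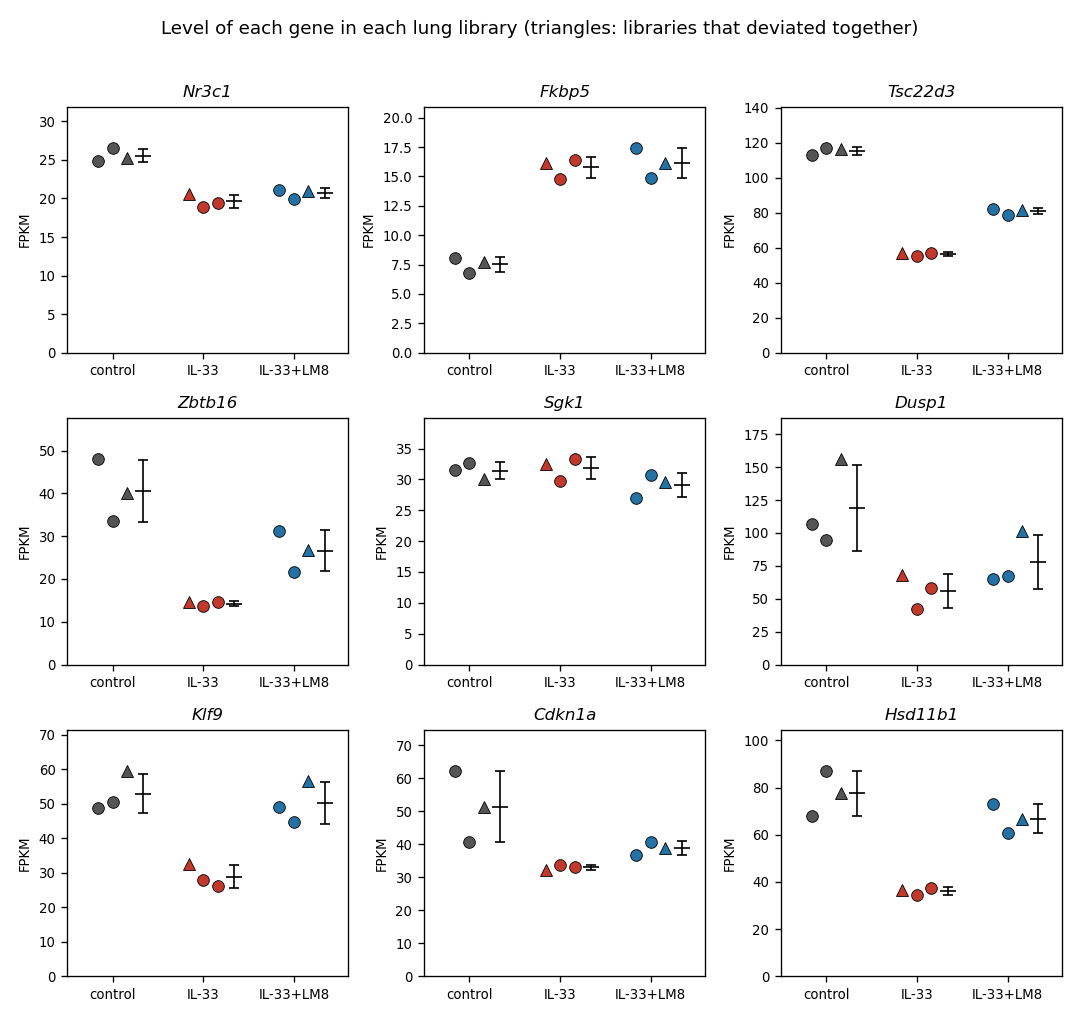
FPKM of each gene (vertical axis, from 0) in each of the 3 libraries of control, IL-33 and IL-33+LM8, with the mean and SD of the group (n = 3) beside the points. Triangles mark the libraries that deviated together. Sgk1 overlaps in every pair of groups.

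Nr3c1 encodes the glucocorticoid receptor and lies on chromosome 18 from 39543598 to 39624352 on the minus strand, in the table's own coordinates. Its level was 24.9, 26.6 and 25.2 FPKM in control, 20.5, 18.9 and 19.5 in IL-33, and 21.1, 19.9 and 21.0 in IL-33+LM8. All 6 libraries given IL-33 lay below all control libraries, and the groups with and without LM8 overlapped. The receptor transcript fell in IL-33 against control (log2 fold change -0.38, SE 0.05, adjusted p = 0.000489) and was also lower in IL-33+LM8 against control (-0.29, SE 0.05, adjusted p = 0.00718). The difference with LM8 was 0.07 (95% interval -0.04 to 0.19, adjusted p = 0.319). With only the 2 libraries per group outside the shared deviation, the IL-33+LM8 against control difference was -0.32 and no longer past the test (adjusted p = 0.0798).

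Among 13 genes of receptor cofactors and steroid handling, 7 were lower and 0 higher in IL-33, with a median log2 fold change of -0.29. The mineralocorticoid receptor gene Nr3c2, whose protein binds the same steroids, fell by 1.60 (SE 0.17), the drug efflux pump gene Abcb1a by 1.23 (SE 0.06), the co-chaperone gene Fkbp4 by 0.60 (SE 0.06) and Hsp90aa1 by 0.54 (SE 0.09). In IL-33+LM8 against IL-33, 3 were higher and 0 lower, with a median of 0.14: Nr3c2 (0.95, SE 0.20), Abcb1a (0.68, SE 0.10) and H6pd (0.48, SE 0.05), whose product supplies the cofactor of the Hsd11b1 enzyme. Against control, 4 were lower and 0 higher with LM8, with a median of -0.14.

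Fkbp5 encodes a co-chaperone that lowers the receptor's affinity for hormone and is itself induced by the receptor, a negative feedback. It lies on chromosome 17 from 28618068 to 28736498 on the minus strand. Its level was 8.06, 6.78 and 7.70 FPKM in control, 16.2, 14.8 and 16.4 in IL-33, and 17.5, 14.9 and 16.1 in IL-33+LM8. Every library given IL-33 lay above every control library, and the IL-33 and IL-33+LM8 libraries overlapped. Fkbp5 rose 2.10-fold in mean FPKM in IL-33 (log2 fold change 1.07, SE 0.08, adjusted p = 3.3e-05) and 2.15-fold in IL-33+LM8 against control (1.12, SE 0.09, adjusted p = 0.00022). The difference between IL-33+LM8 and IL-33 was 0.03, with a 95% interval from -0.13 to 0.20 (adjusted p = 0.781). It was the only one of the 9 genes that was higher with IL-33.

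Tsc22d3 encodes GILZ, a leucine zipper protein that is induced by the receptor and restrains NF-κB and AP-1. The gene lies on chromosome X from 139440277 to 139501408 on the minus strand. Its level was 113, 117 and 116 FPKM in control, 56.8, 55.1 and 57.2 in IL-33, and 82.2, 78.9 and 81.6 in IL-33+LM8. The 3 groups were fully separate, with IL-33+LM8 between the others, and the spread within a group was small, at most 2.22% of the mean. Tsc22d3 fell by 1.04 in IL-33 (SE 0.04, adjusted p = 3.5e-06), rose with LM8 (0.52, SE 0.05, adjusted p = 0.000376) and was lower than control with LM8 (-0.50, SE 0.06, adjusted p = 0.000942).

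Zbtb16 encodes PLZF, a zinc finger transcription factor that glucocorticoids induce in many tissues and that is also a factor of innate-like lymphocytes. It lies on chromosome 9 from 48565597 to 48747522 on the minus strand. Its level was 48.0, 33.5 and 40.2 FPKM in control, 14.6, 13.6 and 14.6 in IL-33, and 31.3, 21.7 and 26.7 in IL-33+LM8. The IL-33 libraries lay within a narrow range below all others, while the control and IL-33+LM8 libraries were spread more widely without overlapping. Zbtb16 fell by 1.51 in IL-33, the largest change of the 9 genes in that comparison (SE 0.13, adjusted p = 6.3e-05) and rose with LM8 (0.90, SE 0.12, adjusted p = 0.00161). It was lower in IL-33+LM8 against control (-0.60, SE 0.17, adjusted p = 0.0344). That last call was lost without a filter on low values (-0.58, adjusted p = 0.0553), without control replicate 3 (-0.61, adjusted p = 0.0648), without IL-33+LM8 replicate 3 (-0.60, adjusted p = 0.0861) and with only the 2 libraries per group outside the shared deviation (-0.61, adjusted p = 0.107). It was also lost, with a smaller change, without control replicate 1 (-0.45, adjusted p = 0.0943) or IL-33+LM8 replicate 2 (-0.47, adjusted p = 0.0943), and held with the replicate block (adjusted p = 0.000424).

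Of 8 lymphoid marker genes, 8 were higher in IL-33 and 0 lower. Their summed level was 22.9, 22.3 and 23.5 FPKM in control, 92.4, 78.7 and 95.7 in IL-33, and 52.4, 43.8 and 48.8 in IL-33+LM8. Il7r was the most abundant, at a mean of 14.9 FPKM over the 9 libraries. In IL-33+LM8 against IL-33, 0 were higher and 5 lower, and in IL-33+LM8 against control 6 were higher and 0 lower. Their part in the level of Zbtb16 was not tested.

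Sgk1 encodes a serine/threonine kinase that regulates ion channels and cell survival and is induced by both glucocorticoids and mineralocorticoids. The table places it on chromosome 10 from 21758083 to 21875797 on the plus strand. Its level was 31.5, 32.7 and 30.1 FPKM in control, 32.5, 29.7 and 33.2 in IL-33, and 26.9, 30.8 and 29.6 in IL-33+LM8. The libraries of all groups overlapped. The log2 fold change was 0.02 in IL-33 (95% interval -0.12 to 0.16, adjusted p = 0.839), -0.13 in IL-33+LM8 against IL-33 (-0.29 to 0.04, adjusted p = 0.24) and -0.10 in IL-33+LM8 against control (-0.26 to 0.07, adjusted p = 0.349). These intervals do not reach 2-fold in either direction.

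Dusp1 encodes a phosphatase that inactivates MAP kinases and is induced both by glucocorticoids and, within minutes, by stress and growth signals. It lies on chromosome 17 from 26724564 to 26781102 on the minus strand. Its level was 107, 94.3 and 156 FPKM in control, 67.9, 42.4 and 57.9 in IL-33, and 65.2, 67.3 and 102 in IL-33+LM8. Control and IL-33 did not overlap, whereas IL-33+LM8 overlapped both, and the highest library of each group was the one that shared the deviation. Dusp1 fell by 1.09 in IL-33 (SE 0.22, adjusted p = 0.00503). The difference with LM8 was 0.48 (SE 0.21, adjusted p = 0.149), and ranged from 0.25 without IL-33+LM8 replicate 3 (adjusted p = 0.371) to 0.64 without IL-33 replicate 1 (adjusted p = 0.103). It was 0.31 without IL-33 replicate 2 (adjusted p = 0.338), 0.41 with only the 2 libraries per group outside the shared deviation (adjusted p = 0.147) and 0.47 with the replicate block (adjusted p = 0.12). Only with a covariate for the shared deviation was it past the test (0.46, adjusted p = 0.0257). Against control it was -0.59 with LM8 (SE 0.23, adjusted p = 0.093). With replicate number as a block the same difference was past the test (-0.59, adjusted p = 0.00136), although control and IL-33+LM8 libraries of different numbers also deviated together. It was past the test with the covariate (adjusted p = 0.00141), with only the 2 libraries per group outside the shared deviation (0.0177) and without IL-33+LM8 replicate 3 (-0.83, adjusted p = 0.0372) too. Without control replicate 3, the control library that stood apart, it was -0.36 and not past the test (adjusted p = 0.235), nor was it without any of the other 4 libraries (adjusted p from 0.079 to 0.252).

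Of 9 immediate early genes, which respond to stress and handling of tissue, 6 were lower and 2 higher in IL-33, with a median log2 fold change of -0.77. Egr1 fell by 1.46 (SE 0.11) and Fos by 1.43 (SE 0.14), while Atf3 (2.14, SE 0.17) and Junb (1.31, SE 0.24) rose. With LM8 against IL-33, 6 were higher and 1 lower, with a median of 0.47. Against control, 2 were higher and 2 lower with LM8, with a median of -0.25. The part of tissue handling in the level of Dusp1 was not tested.

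Klf9 encodes a Krüppel-like transcription factor that is a direct receptor target and also varies with the time of day. The table places it on chromosome 19 from 23118590 to 23145498 on the plus strand. Its level was 48.8, 50.5 and 59.4 FPKM in control, 32.6, 27.9 and 26.2 in IL-33, and 49.2, 44.6 and 56.7 in IL-33+LM8. The IL-33 libraries lay below all others, and the control and IL-33+LM8 libraries overlapped. Klf9 fell by 0.88 in IL-33 (SE 0.10, adjusted p = 0.00026) and rose with LM8 (0.80, SE 0.11, adjusted p = 0.00161). Against control the difference with LM8 was -0.06 (95% interval -0.31 to 0.19, adjusted p = 0.697).

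Of 9 clock genes, 4 were higher and 4 lower in IL-33, against 27.4% and 27.2% of all genes, with a median log2 fold change of 0.03. Dbp, an output gene of the clock, stood at 1.38, 2.04 and 2.17 FPKM in control, 14.8, 12.2 and 11.9 in IL-33, and 10.6, 2.33 and 11.1 in IL-33+LM8. The second IL-33+LM8 library lay near control and the other 2 near IL-33. Nr1d1 rose by 1.93 (SE 0.18) and Arntl fell by 1.61 (SE 0.20) in IL-33. With LM8, 1 was higher and 1 lower against IL-33, near the 12.6% and 13.9% of all genes, with a median of 0.09, and 3 were higher and 2 lower against control, with a median of 0.24. The hour of collection is not given for any library, and its part in the level of Klf9 was not tested.

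Cdkn1a encodes p21, an inhibitor of cyclin-dependent kinases that is induced by glucocorticoids and by p53. The gene lies on chromosome 17 from 29309950 to 29319701 on the plus strand. Its level was 62.2, 40.7 and 51.4 FPKM in control, 32.2, 33.7 and 33.1 in IL-33, and 36.7, 40.8 and 39.0 in IL-33+LM8. The control libraries were widely spread, with a standard deviation of 20.9% of the mean, the IL-33 libraries lay below all others, and IL-33+LM8 overlapped control. Cdkn1a fell by 0.64 in IL-33 (SE 0.14, adjusted p = 0.00718) and was higher with LM8 than with IL-33 alone (0.24, SE 0.06, adjusted p = 0.0213). The call with LM8 was lost, at fold changes from 0.22 to 0.25, in 1 fit of all 9 libraries (adjusted p = 0.197), without IL-33 replicate 1 (0.0696) or 3 (0.0558), without IL-33+LM8 replicate 3 (0.0588) and with only the 2 libraries per group outside the shared deviation (0.191). Against control the difference with LM8 was -0.39 (SE 0.15, adjusted p = 0.0894). It was -0.22 without control replicate 1 (adjusted p = 0.222) and -0.53 without control replicate 2, where it passed (adjusted p = 0.0171), as it did with DESeq2 (-0.40, adjusted p = 0.0187) and in the fit of all 9 libraries (-0.39, adjusted p = 0.0433).

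Of 9 p53 target genes, 5 were higher and 1 lower in IL-33, with a median log2 fold change of 0.27. The lower one was Trp53inp1 (-0.20, adjusted p = 0.00436). Gdf15 rose by 0.87 (SE 0.19), Bax by 0.69 (SE 0.08), Zmat3 by 0.39 (SE 0.07) and Ccng1 by 0.30 (SE 0.06). With LM8 against IL-33, 0 were higher and 4 lower, with a median of -0.28. Against control, 1, Bax, was higher with LM8 (0.41, SE 0.08), a share no larger than the 16.3% of all genes. There 0 were lower, against 13.4%, and the median was 0.03. The part of p53 in the level of Cdkn1a was not tested.

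Hsd11b1 encodes the reductase that regenerates active glucocorticoid from its inactive 11-keto form inside cells. The table places it on chromosome 1 from 192903942 to 192925869 on the minus strand. Its level was 67.8, 86.9 and 77.8 FPKM in control, 36.6, 34.3 and 37.4 in IL-33, and 72.9, 60.9 and 66.7 in IL-33+LM8. The IL-33 libraries lay below all others and the control and IL-33+LM8 libraries overlapped. Hsd11b1 fell by 1.10 in IL-33 (SE 0.09, adjusted p = 5.1e-05) and rose 1.85-fold in mean FPKM with LM8 (0.89, SE 0.07, adjusted p = 0.000253). Against control the difference with LM8 was -0.20 (95% interval -0.44 to 0.04, adjusted p = 0.185). The whole span of Hsd11b1 lies within that of Lamb3 on the opposite strand, whose mean was 16.4 FPKM in control, 12.5 in IL-33 and 12.0 in IL-33+LM8, and whose counts came to 34.7% of those of Hsd11b1. Whether counting used the strand is not given in the sources used here, so reads of the pair cannot be told apart where their exons overlap. In all, 6 of the 9 genes overlap 13 entries of the table. Dusp1 overlaps 4, among them Ergic1 on the opposite strand over 640 bases, whose counts came to 33.9% of those of Dusp1, and Cdkn1a overlaps 1700023B13Rik on the opposite strand over 1046 bases (1.02% of its counts). Fkbp5 overlaps 4, of which Gm49838 had the most counts, 0.122% of those of Fkbp5. Klf9 overlaps Mir1192 (0.00674% of its counts) and Tsc22d3 overlaps Gm53027 (0.00176%).

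**Figure D2:**
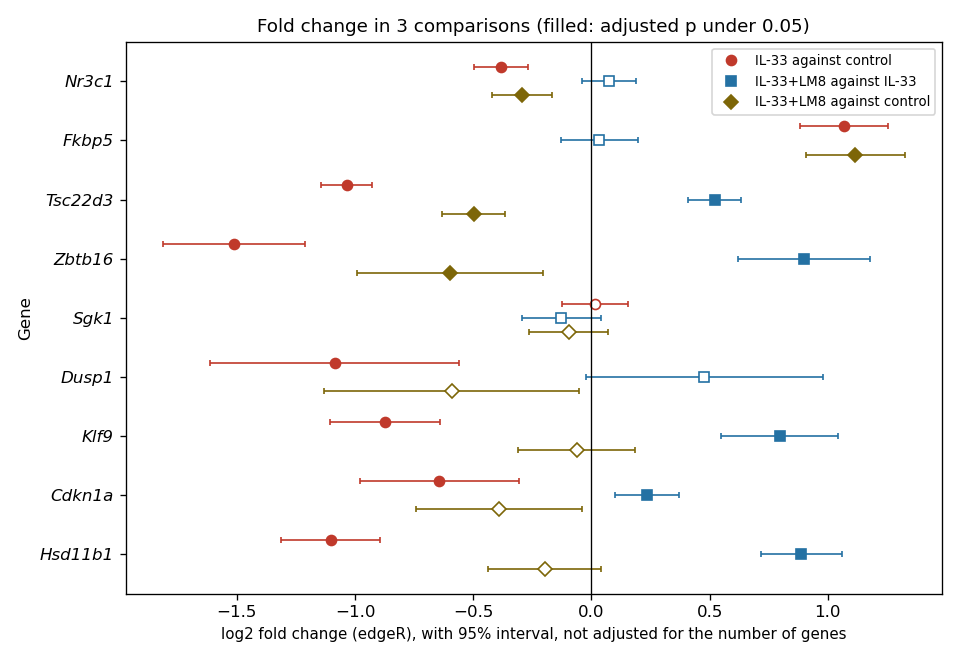
Log2 fold change (horizontal axis) of each gene in the 3 comparisons with its 95% interval, not adjusted for the number of genes. Filled symbols are past the test: 8 genes in IL-33 against control, 5 in IL-33+LM8 against IL-33 and 4 in IL-33+LM8 against control.

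Ordered by mean FPKM in control, the genes were Dusp1 (119), Tsc22d3 (115), Hsd11b1 (77.5), Klf9 (52.9), Cdkn1a (51.4), Zbtb16 (40.5), Sgk1 (31.4), Nr3c1 (25.6) and Fkbp5 (7.51). Values of Dusp1 and Tsc22d3, of Klf9 and Cdkn1a, and of Cdkn1a and Zbtb16 overlapped between neighbours. In IL-33 the order was Tsc22d3 (56.4), Dusp1 (56.1), Hsd11b1 (36.1), Cdkn1a (33.0), Sgk1 (31.8), Klf9 (28.9), Nr3c1 (19.6), Fkbp5 (15.8) and Zbtb16 (14.2). There Tsc22d3 and Dusp1, Cdkn1a and Sgk1, and Sgk1 and Klf9 overlapped. In IL-33+LM8 it was Tsc22d3 (80.9), Dusp1 (78.0), Hsd11b1 (66.8), Klf9 (50.2), Cdkn1a (38.9), Sgk1 (29.1), Zbtb16 (26.6), Nr3c1 (20.6) and Fkbp5 (16.1). There Tsc22d3 and Dusp1, Dusp1 and Hsd11b1, and Sgk1 and Zbtb16 overlapped. Zbtb16 was above Fkbp5 in every control and IL-33+LM8 library and below it in every IL-33 library.

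Of 21 other genes that glucocorticoids induce, 6 were higher in IL-33, a share near the 27.4% of all genes, and 11 lower, against 27.2%, with a median log2 fold change of -0.33. The largest changes were in Il1r2, a decoy receptor for interleukin-1 (4.45, SE 0.23), the transcription factor gene Klf15 (-2.25, SE 0.06), the pyruvate dehydrogenase kinase gene Pdk4 (-1.47, SE 0.17) and Rasd1 (-1.46, SE 0.18). Il1r2 rose from a low level, 0.52, 0.38 and 0.37 FPKM in control, to 8.15, 8.49 and 11.7 in IL-33. Klf15 stood at 34.5, 36.4 and 37.4 FPKM in control, 7.98, 7.14 and 7.69 in IL-33, and 26.2, 20.9 and 23.3 in IL-33+LM8, with no overlap between groups. With LM8 against IL-33, 9 were higher and 1 lower, with a median of 0.36. Klf15 (1.62, SE 0.09), Rasd1 (1.11, SE 0.23), Pdk4 (0.82, SE 0.13) and Cd163 (0.62, SE 0.10) changed most. Against control, 5 were higher and 7 lower with LM8, with a median of 0.09.

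For each gene past the test in at least 1 comparison, the 3 genes of most similar pattern were those with the smallest root mean square difference of centred log2(CPM + 1) over the 9 libraries, among 16831 genes. For Nr3c1 they were Fbxo11 (0.0281), Phf20l1 (0.0308) and Mapre2 (0.0351). For Fkbp5 they were Ggt5 (0.0777), Il17ra (0.0924) and Rasgrp4 (0.11), and for Tsc22d3 Ocln (0.027), Fermt2 (0.0366) and Mme (0.0372). The distance is not scaled by a gene's own variation, so its size says nothing of how the 8 genes rank. For Zbtb16 the nearest were Fos (0.0788), Fendrr (0.0813) and Mill2 (0.094), of which Fos is also in the list of immediate early genes. For Dusp1 they were Lysmd2 (0.144), Bambi (0.151) and Prdm16os (0.151), and for Klf9 Pink1 (0.0774), Ramp2 (0.0958) and Gm281 (0.0962). For Cdkn1a they were Lamb1 (0.0717), P4ha2 (0.08) and Cdk5rap1 (0.0807), and for Hsd11b1 Clec1a (0.0458), Adgrl4 (0.055) and Akr1c14 (0.0713).

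Marker genes of lung cell types moved with the groups, and their part in the 9 genes was not tested. The gene said to lead a list has the highest mean of that list over the 9 libraries. The endothelial markers, led by Cldn5 (mean 182 FPKM), summed to 683, 652 and 737 FPKM in control, 443, 422 and 465 in IL-33 and 654, 641 and 659 in IL-33+LM8, with 4 of 6 lower in IL-33 and 6 of 6 higher with LM8 against IL-33. Cldn5 itself (log2 fold change -0.23, adjusted p = 0.24) and Vwf (0.30, adjusted p = 0.12) did not pass in IL-33 against control. The alveolar epithelial markers, led by Sftpc (mean 8408), had sums of 14248, 15136 and 14041 in control, 7386, 7534 and 7613 in IL-33 and 12216, 13380 and 12451 in IL-33+LM8, with 5 of 7 lower in IL-33 and 5 of 7 higher with LM8. The airway epithelial markers, led by Scgb1a1 (mean 15818), had sums of 23733, 23636 and 21686 in control, 8490, 9532 and 9200 in IL-33 and 17743, 18490 and 17111 in IL-33+LM8, with 3 of 4 lower and then 3 of 4 higher. Each epithelial sum was mostly 1 gene. In control Sftpc averaged 11029.6 FPKM of a mean sum of 14475, and Scgb1a1 21499.5 of 23019. Foxj1 (log2 fold change -0.03), Sftpa1 (0.155) and Lamp3 (-0.13) did not pass in IL-33 against control. The fibroblast markers, led by Npnt (mean 99.1), had sums of 371, 323 and 353 in control, 366, 396 and 349 in IL-33 and 249, 246 and 245 in IL-33+LM8, with 5 of 7 lower and 2 higher in IL-33 and 3 higher and 2 lower with LM8. The 2 higher in IL-33, a share near the 27.4% of all genes, were Col1a1 (log2 fold change 2.15, SE 0.198) and Col1a2 (1.49, SE 0.115). Their means there were 149 and 90.6 FPKM, against 62.2 for Npnt. The cardiac muscle markers, led by Actc1 (mean 64.9), had sums of 241, 230 and 234 in control, 83.9, 59.7 and 82.0 in IL-33 and 120, 79.2 and 106 in IL-33+LM8, with 4 of 4 lower in IL-33 and 1 of 4 higher with LM8. In IL-33+LM8 against control, 3 endothelial markers were lower and 1 higher, and 3 alveolar epithelial markers were lower and 1 higher. In that comparison 2 airway epithelial, 4 fibroblast and 3 cardiac muscle markers were lower and 0 higher.

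The neutrophil markers, led by S100a9 (mean 190 FPKM), summed to 28.5, 29.7 and 24.5 FPKM in control, 91.8, 115 and 92.7 in IL-33 and 848, 720 and 737 in IL-33+LM8. All 7 were higher in IL-33 and again with LM8, and Ly6g was at 0 in control replicate 3. The eosinophil markers, led by Prg2 (mean 7.87), summed to 4.07, 3.82 and 4.45 in control, 40.3, 43.2 and 45.7 in IL-33 and 8.86, 9.09 and 8.42 in IL-33+LM8, with 5 of 5 tested higher in IL-33 and 5 lower with LM8. In control Siglecf had a mean of 3.40 FPKM and Prg2 of 0.176. In IL-33+LM8 against control 3 were higher and 1, Siglecf, was lower (-0.80, adjusted p = 0.00365). Epx was at 0 in all 3 control libraries, Ear6 in 2 and Ccr3 in 1. The alveolar macrophage markers, led by Plet1 (mean 37.5), had sums of 55.5, 64.2 and 47.1 in control, 88.1, 89.1 and 98.9 in IL-33 and 88.4, 116 and 87.0 in IL-33+LM8, with 3 of 6 higher and 2 lower in IL-33, 3 higher and 2 lower with LM8, and Fabp1 at 0 in IL-33 replicate 1. The smooth muscle markers, led by Acta2 (mean 144), had sums of 179, 203 and 179 in control, 260, 267 and 272 in IL-33 and 293, 330 and 309 in IL-33+LM8, with 2 of 4 higher in IL-33 and 2 of 4 higher with LM8. The adipocyte markers, led by Adipoq (mean 3.27), had sums of 3.00, 12.2 and 6.68 in control, 4.03, 2.37 and 4.73 in IL-33 and 2.07, 5.22 and 2.89 in IL-33+LM8. Of these, 2 of 4 were tested and 0 passed in any comparison, and Ucp1 was at 0 in all control libraries and in IL-33+LM8 replicate 3. In IL-33+LM8 against control, 7 neutrophil, 3 alveolar macrophage and 3 smooth muscle markers were higher and 0 lower.

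Promoter windows of 300 bases, 250 before to 50 after a transcription start, were taken from a table of RefSeq promoters on GRCm38.p6, which held 15 windows for 7 of the 9 genes; Nr3c1 and Zbtb16 had no entry. The half-site of the glucocorticoid response element (TGTTCT, or AGAACA on the other strand) was found in 4 of these windows, 3 of the 6 of Sgk1 and 1 of the 3 of Tsc22d3, and in 19.0% of all 32851 windows. The Sgk1 window at chr10:21993640-21993939 on the plus strand held 3 half-sites, from positions 9, 62 and 71 counted from its 5′ end. The last 2 of them face each other 3 bases apart, an arrangement found in 3 windows of the table (0.00913%) and searched for after the half-sites were seen. The Tsc22d3 window at chrX:140600473-140600772 on the minus strand held 1, from position 66. Both windows are shown because Tsc22d3 fell with IL-33 and Sgk1 did not pass the test, with the half-sites in capitals. A match describes the letters of the window only.
Sgk1: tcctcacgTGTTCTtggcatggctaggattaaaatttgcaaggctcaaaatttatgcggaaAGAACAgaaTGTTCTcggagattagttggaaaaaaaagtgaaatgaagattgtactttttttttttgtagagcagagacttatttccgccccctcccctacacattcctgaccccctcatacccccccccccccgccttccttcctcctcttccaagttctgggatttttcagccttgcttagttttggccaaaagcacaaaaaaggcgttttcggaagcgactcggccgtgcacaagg
Tsc22d3: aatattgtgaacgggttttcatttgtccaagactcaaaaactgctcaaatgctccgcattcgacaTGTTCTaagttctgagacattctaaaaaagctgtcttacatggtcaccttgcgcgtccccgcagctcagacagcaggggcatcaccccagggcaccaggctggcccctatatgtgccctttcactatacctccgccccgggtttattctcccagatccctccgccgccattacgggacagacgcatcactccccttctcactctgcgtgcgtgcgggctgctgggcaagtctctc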

How the data were processed

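Lung RNA was sequenced in paired ends, and the authors deposited 1 table of read counts and FPKM per gene for 9 libraries. The submitters' processing notes name Bowtie 0.12.2, HISAT2 2.0, StringTie 1.3.0 and build mm10, without roles. All 9 genes have a start in a RefSeq GRCm38.p6 gene table, separate from the promoter table that holds 7 of them, and 0 of these starts lay within 10 kb of the table's start, so gene positions are given in the table's own coordinates and were not mixed with promoter positions. The counter and annotation are not given in the sources used here.

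The deposited counts were tested with edgeR 4.0.16 (R 4.3.3, TMM, quasi-likelihood) on the 6 libraries of each comparison, after removing genes whose FPKM averaged under 0.5 across the 9 libraries or whose counts were all 0 in the 6. P-values were adjusted by Benjamini-Hochberg over all genes tested. The SE is the log2 fold change divided by the square root of F. Exact two-sided permutation tests used log2(FPKM + 1) and scipy 1.17.1. The fits were tested on simulated data. There edgeR recovered fewer of the changed genes than the bound set at first, and that bound was lowered after this was seen. Within groups, the chi-square per gene between any pair of libraries was 21.9 or more, so none was a copy of another within sampling noise. This does not show that they come from separate animals.

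Alternatives were median-of-ratios size factors, DESeq2 1.42.0, limma 3.58.1 on log2(FPKM + 1) and log2(FPKM + 0.1), filters, 1 fit of all 9 libraries, a replicate block and each library left out. For the block, deviations from group means of same-numbered libraries correlated at 0.389, 0.428 and 0.732 between control and IL-33+LM8, at -0.527, 0.381 and -0.446 between control and IL-33, and at -0.524, 0.311 and -0.553 between IL-33 and IL-33+LM8. By the criterion of a correlation over 0.1 in every pair, only control and IL-33+LM8 were paired, from the data and not from the labels. Differently numbered libraries correlated as well, control 1 with IL-33+LM8 2 at 0.322 and control 2 with IL-33+LM8 1 at 0.307, and the 0.732 is between 2 libraries that stood apart. Whether the numbers mark a shared source cannot be told apart from that deviation.

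The members and lists were chosen with earlier results of these data known. Genes named are the 9 members; from each list, up to 4 (and Trp53inp1, chosen after its values were seen) with the largest absolute log2 fold change among those past the test; from each marker list, the most abundant gene and any at 0; and the 3 genes most like each member. Cebpd, Phlda3 and Fabp1, for the libraries that stood apart, the overlapping genes, and Col1a1, Col1a2 and Siglecf were chosen after their values were seen. So were Vwf, Foxj1, Sftpa1, Lamp3, Marco, Krt79, Mrc1 and Pparg. Figures were drawn with matplotlib 3.10.9.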

Additional observations from a re-analysis of the deposited data

How the results depend on the processing

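Of the members' counts past the test, 8 in IL-33 against control stayed at 8 when each library was left out (8 to 8), 5 in IL-33+LM8 against IL-33 ranged from 4 to 5, and 4 in IL-33+LM8 against control from 3 to 5. Over all genes the counts of 9193, 4459 and 4997 ranged from 7875 to 8549, from 3042 to 4368 and from 3165 to 4919, the last being lowest without IL-33+LM8 replicate 3. A minimum of 2-fold left 5, 0 and 1 members and 2865, 907 and 1233 genes, and a mean FPKM of at least 5 left 5458, 2837 and 3182 genes, in each case because fewer genes could pass. With the replicate block the members' counts were 8, 5 and 5 and those of all genes 8256, 3393 and 6422; among members it changed the call of Dusp1 in IL-33+LM8 against control and no other.

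After seeing the data, a covariate for the 3 libraries that deviated together and a fit without them were added. The covariate gave 8, 6 and 5 members and 9589, 4527 and 5345 genes. Without these libraries there were 8, 4 and 3 members and 7545, 1966 and 2622 genes, with fewer libraries in the fit. Cdkn1a in IL-33+LM8 against control passed with DESeq2 (adjusted p = 0.0187), in the fit of all 9 libraries (0.0433) and without control replicate 2 (0.0171), where edgeR on 6 libraries gave 0.0894. With each library left out it ranged from -0.527 to -0.221 (adjusted p from 0.0171 to 0.222), the smallest change being without control replicate 1; the cause was not tested.

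The sign turned only for differences that were not past the test. Sgk1 in IL-33 against control was -0.001 with a mean FPKM of at least 5, -0.027 without the 3 libraries, and -0.019 to 0.076 with each library left out. Fkbp5 in IL-33+LM8 against IL-33 ranged from -0.021 to 0.082, and Klf9 in IL-33+LM8 against control from -0.158 to 0.021. Other differences not past the test kept their sign but moved in size with each library left out. Hsd11b1 in IL-33+LM8 against control ranged from -0.277 to -0.103 and Sgk1 from -0.139 to -0.04. In IL-33+LM8 against IL-33, Sgk1 ranged from -0.176 to -0.07 and Nr3c1 from 0.048 to 0.108. The exact permutation p of each member comparison was the same with a pseudocount of 0.1 as with 1.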
